A study of Homo sapiens with 8 samples.

Results

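The resting transcriptome of BEAS-2B cells that had received only buffer was described from 2 of the 8 libraries of the series, the pair titled Mock, with no comparison against the treated cells. All 50006 genes in the deposited counts were ranked, and 585 genes in 41 lists of epithelial, mesenchymal, matrix, receptor, immune, other cell type and reference genes were read in depth. BEAS-2B is a human bronchial epithelial line immortalised with a hybrid of adenovirus and SV40, so it is a single established line and the values describe that line only. The labels give genotype WT, phosphate-buffered saline (PBS) as the treatment and serum-free LHC-9 as the culture medium. The other 6 libraries, 2 each of cells given fibrinogen, Der m 1-derived FCPs or the fibrinogen αC domain at 4 ng/µl for 4 h, were not used. The labels number the Mock samples as biological replicates 1 and 2 and do not say whether they came from separate cultures, so the spread between them may be partly technical.

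Epithelial cells are held together by E-cadherin, tight junctions and desmosomes, carry keratin filaments and rest on a basement membrane of laminin and type IV collagen. Mesenchymal cells carry vimentin filaments and N-cadherin and secrete fibrillar collagens and fibronectin. In the bronchus, basal cells with KRT5, KRT14 and the transcription factor TP63 renew the ciliated cells, which depend on FOXJ1, and the secretory cells, which make SCGB1A1 and the gel-forming mucins.

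The Mock libraries held 16553366 and 16561302 counts. The level of a gene is its share of all counts in the library, scaled as CPM (counts per 1000000), divided by the length of its merged exons in kilobases, and paired values below are for Mock replicates 1 and 2 in that order. A gene was called expressed at a level of at least 1 in both libraries and abundant at 50 or more in both. A gene with at most 3 counts in each library was at or below the floor, which for a gene of 1 kilobase is a level of 0.181, and genes between the floor and expression were called low. Of the 50006 genes, 10251 (20.5%) were expressed, 1218 of them abundant, 6418 were low and 33337 were at or below the floor. Among the 18138 protein-coding genes with no second annotated copy, 9306 (51.3%) were expressed and the median level was 1.28. Mitochondrial genes took 4.09% and 4.07% of the counts, and cytosolic ribosomal protein genes 4.29% and 4.25%.

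The libraries lay close together. Over 10483 genes without a copy that averaged 50 counts or more, the mean squared difference was 1.28 times the counting variance, Pearson's r of the log2 levels across genes was 0.998 and 36 genes (0.343%) differed by more than 1.5-fold. Over 363 genes with an annotated copy on an alternate locus or patch, the same ratio was 84.2 and 127 genes differed by more than 1.5-fold. Counts of such genes are uncertain, since their reads can be split between copies or go uncounted, and they are marked as copied where they are named. Genes are not independent replicates, so these values are descriptions.

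The head of the ranking held genes of protein synthesis, the cytoskeleton and metal and iron handling. Outside the mitochondrial chromosome the highest level belonged to MT2A, a metal-binding metallothionein, at 5274 and 5226. ACTB, cytoplasmic actin, followed at 3619 and 3625. PTMA, GAPDH, TUBA1B, HSPA8, RACK1, TMSB10, EEF1G and RPL13A completed the first 10, at mean levels from 2161 down to 1668. The next 10 included EEF1A1, RPL8, RPL35, EEF2, RPLP0, IGFBP4, FTL, RPL11 and RPS6, at mean levels from 1587 to 1110. IGFBP4, a secreted binding protein of insulin-like growth factors, was the one gene of these 20 for a secreted growth factor regulator, at 1260 and 1268. The highest gene of the matrix lists, EFEMP1, stood at rank 36, and the plot of level against rank shows where list genes fell.

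**Figure D1:**
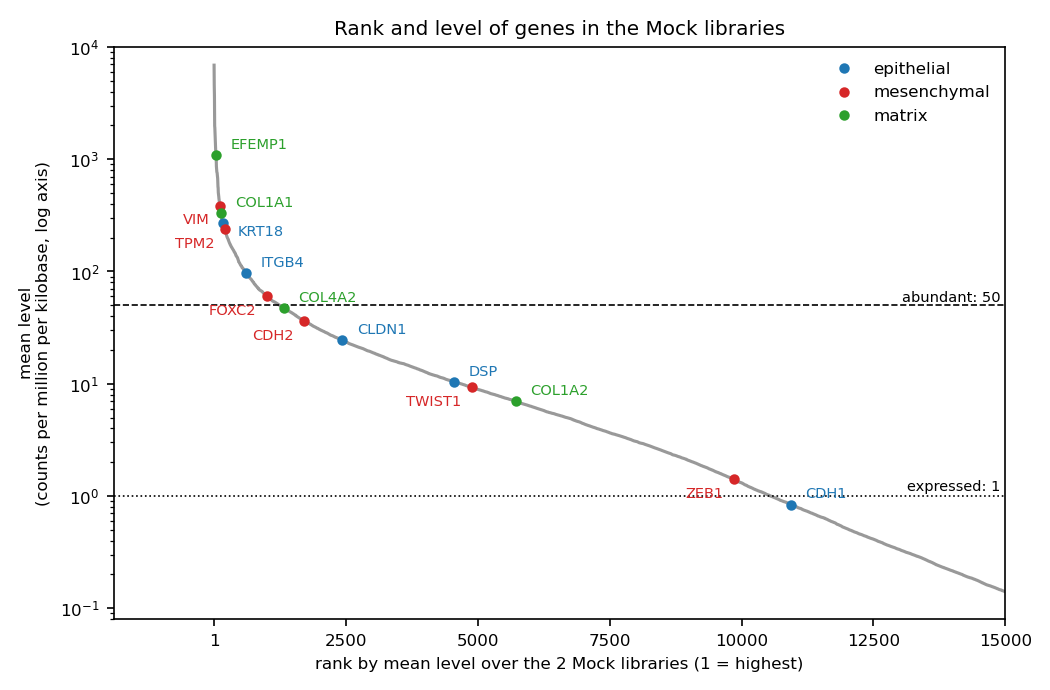
Mean level over the 2 Mock libraries (CPM per kilobase, log axis) against rank among all genes (1 is the highest). Dots mark named epithelial (blue), mesenchymal (red) and matrix (green) genes, and the horizontal lines mark levels of 50 and 1. EFEMP1 at 1085, VIM at 387 and KRT18 at 270 sit in the steep head of the curve, while CDH1 at 0.836 falls under the lower line.

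Of 109 epithelial genes, 38 (34.9%) were expressed, 6 of them abundant, 24 were low and 47 were at or below the floor, 26 of these with no count in either library. The expressed share and the median level of 0.149 stood beside 51.3% and 1.28 over the protein-coding genes without a copy. The pooled share hides a spread between lists. Expressed were 0 of 9 ciliated, 0 of 13 secretory and mucin, 1 of 7 ion transport and 3 of 11 alveolar genes. The shares were 3 of 12 basal and stratified keratins, 4 of 15 factors and 8 of 18 junction genes. They were highest for desmosomes and hemidesmosomes, 14 of 18, and keratins of simple epithelium, 5 of 6. Of the 22 genes marked as defining an epithelial cell type, 6 were expressed, 5 were low and 11 were at or below the floor. By list, the 38 expressed genes included 14 components of desmosomes and hemidesmosomes, 8 junction genes and 5 keratins of simple epithelium, and the 47 at or below the floor included 11 secretory and mucin genes, 8 transcription and splicing factors, 7 alveolar genes and 6 ciliated cell genes.

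Keratins of simple epithelium had the highest median level of the epithelial lists, 95.45, with 5 of 6 expressed. KRT18, the type I partner of KRT8, had levels of 267 and 274 (95% Poisson interval of the pooled level 265.6 to 274.8) and lies at chromosome 12:52948855-52952906 in GRCh38.p14, as the deposited coordinates give it. KRT8 had levels of 203 and 202 and lies next to it at chromosome 12:52897191-52949860. KRT7, a keratin of simple and ductal epithelium, had levels of 177 and 176. The merged exons of KRT7 span 6052 bases, and over its longest GENCODE 29 transcript its mean level would be 610. KRT80 followed at 14.3 and 13.8, and KRT19 at 3.39 and 5.04. KRT20 was listed at 0 in both libraries and has a copy.

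Keratins of basal and stratified epithelium were split, with 3 of 12 expressed, 4 low and 5 at or below the floor. KRT17, which basal and injured epithelium makes, was abundant at 208 and 207. KRT10 was at 18.8 and 18.4. KRT14, a basal cell keratin, was just above the threshold at 1.29 and 1.22. KRT5, the partner of KRT14 in basal cells, was low at 0.918 and 0.729, from 34 and 27 counts, with an interval of 0.630 to 1.06. KRT15 had 1 and 9 counts, levels of 0.0345 and 0.310. KRT6A and KRT16 were also low. KRT5 would pass a threshold of 0.5 or the threshold of 1 without length division, at 2.05 and 1.63 CPM, or after rescaling to TPM, at a mean of 2.27. KRT15 would fall to a mean of 0.0577 over its longest transcript. These are bulk libraries, so a low level in every cell and a higher level in few cells cannot be told apart, here or for any low gene below.

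**Figure D2:**
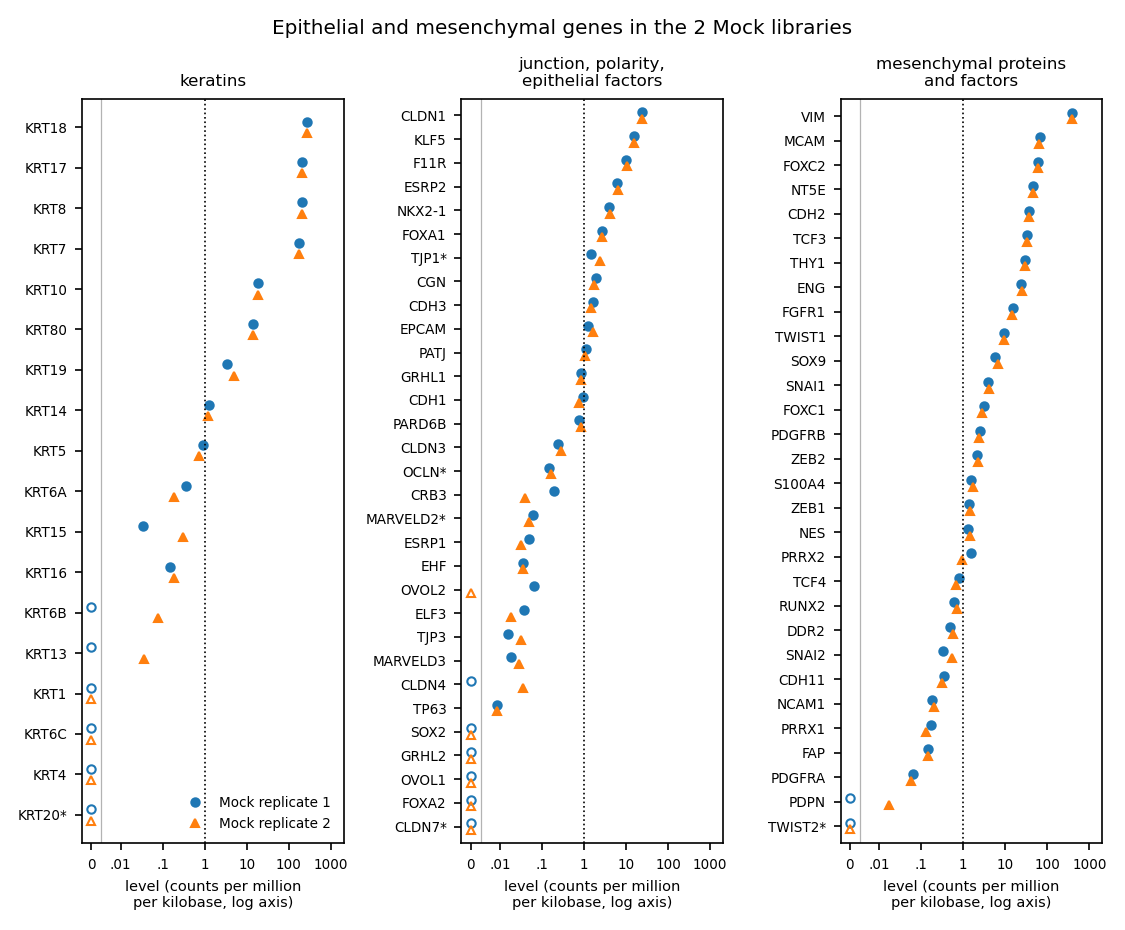
Levels of 18 keratins, 31 junction, polarity and transcription factor genes of epithelium and 30 mesenchymal genes in Mock replicate 1 (blue circles) and 2 (orange triangles), in CPM per kilobase on a log axis, with open symbols left of the grey line for a count of 0. The dotted line marks a level of 1 and an asterisk a gene with an annotated copy; KRT18 and VIM lie above 100 and CDH1 lies left of the line.

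Junction genes gave 8 expressed of 18, none of them abundant. CLDN1, a sealing claudin of tight junctions, had levels of 24.2 and 24.5. F11R, the junctional adhesion molecule A, was at 10.1 and 10.3. TJP1, CGN and CDH3 followed at mean levels of 1.92, 1.83 and 1.55, and TJP1 has copies and differed between the libraries, with 209 and 352 counts. The mean level of CDH3 would be 2.33 over its longest transcript. EPCAM, the epithelial cell adhesion molecule, was expressed at 1.25 and 1.64, from 32 and 42 counts. It would fail at a threshold of 2, and without length division it would be at 1.93 and 2.54 CPM. CDH1, which encodes E-cadherin and lies at chromosome 16:68737292-68835537, was low at 0.929 and 0.743, from 75 and 60 counts, with a counting interval of 0.701 to 0.989. That call rests on the unit and threshold, since CDH1 would pass at a threshold of 0.5, without length division at 4.53 and 3.62 CPM, or after rescaling to TPM at a mean of 2.31. CLDN4 had 0 and 1 counts, and CLDN7, which has a copy, had none.

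Desmosomes and hemidesmosomes were the epithelial structure with most genes expressed, 14 of 18, and no member was at the floor. PLEC, the linker plectin, had levels of 113 in both libraries. ITGB4, the hemidesmosomal integrin subunit, had levels of 96.5 and 98.0. The desmosomal plaque and cadherin genes PKP2, JUP, DSG2 and DSC3 had mean levels of 18.6, 15.2, 14.1 and 11.4, and over its longest transcript JUP would be at 26.7. DSP, which encodes desmoplakin, the anchor of keratin filaments, had levels of 10.7 and 10.1. The members typical of basal cells were low. DSG3 had levels of 0.0217 and 0.108, the hemidesmosomal collagen COL17A1 0.0538 and 0.0753, and LAMB3 0.112 and 0.179.

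Epithelial transcription and splicing factors gave 4 expressed of 15 and 8 at or below the floor. KLF5, an epithelial proliferation factor, was at 15.4 in both libraries, the splicing regulator ESRP2 at 6.01 and 6.44, and FOXA1 at 2.74 and 2.70. NKX2-1, the lung and thyroid lineage factor, was expressed at 3.84 and 4.07, from 151 and 160 counts. GRHL1 lay just under the threshold, at a mean level of 0.856, and over its longest transcript it would pass at 1.07 and 1.05. TP63, the basal cell factor, had 1 count in each library. GRHL2, OVOL1, FOXA2 and SOX2 had none, and ESRP1 had levels of 0.0481 and 0.0321, at the floor.

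No marker of ciliated cells (0 of 9) or of secretory cells and mucins (0 of 13) was expressed. FOXJ1 and SCGB1A1 had no count in either library. MUC5B had 0 and 1 counts, and MUC5AC, which has a copy, had none. The membrane mucin MUC1 was the epithelial gene nearest below the threshold, at 0.993 and 1.02, and the desmosomal PKP1 the one nearest above it, at 1.02 and 1.04. DNAH5, CCDC39 and TPPP3 were low, at mean levels from 0.141 to 0.157.

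Among ion transport genes, SCNN1A, a subunit of the epithelial sodium channel, was the one of 7 expressed, at 3.36 and 3.14. CFTR, the chloride channel, had levels of 0.0199 in both libraries, at the floor, and the ionocyte factor FOXI1 had no count. Of 11 alveolar genes, 3 were expressed. ABCA3, a lipid transporter of surfactant bodies, had levels of 7.36 and 7.21, LAMP3 2.58 and 2.62, and the water channel AQP5 2.17 and 2.25. LAMP3 would be at a mean of 7.47 over its longest transcript. SFTPC had no count, SFTPB had 0 and 1, and AGER, which has a copy, had none.

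Of 60 mesenchymal genes, 34 (56.7%) were expressed, 5 of them abundant, and 6 were at or below the floor. That share and the median level of 1.44 lay near the 51.3% and 1.28 of the protein-coding genes. Of the 13 defining genes, 6 were expressed, 5 were low and 2 had no count. VIM, the intermediate filament vimentin, stood at rank 110 with levels of 389 and 385, above each keratin, and lies at chromosome 10:17228241-17237593. Over the longest transcripts that order would change for KRT7, whose mean level of 610 would exceed the 446 of VIM. A share of 29.8% of its exon bases overlaps another annotated gene.

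Surface genes of mesenchymal cells gave 10 expressed of 16, VIM included. MCAM had levels of 64.8 and 64.6 and NT5E 46.5 and 45.4. CDH2, which encodes N-cadherin, was at 36.5 and 36.2, both above the values of each of the other cadherins listed. THY1, a fibroblast surface glycoprotein, was at 28.5 and 29.8, and ENG, a co-receptor for transforming growth factor beta, at 23.4 and 25.4. FAP, a protease of activated fibroblasts, was low at 0.145 in both libraries, PDGFRA was low at 0.0626 and 0.0557, and PDPN had 0 and 1 counts. THY1 would be at a mean of 46.2 and FAP at 0.261 over the longest transcripts.

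The contractile list gave 7 expressed of 14. TPM2 and MYL9, a tropomyosin and a myosin light chain, were abundant, at 240 and 237 and at 132 and 136. TPM1, CALD1 and TAGLN had mean levels of 41.7, 33.1 and 28.3, and 66.3% of the exon bases of TAGLN overlap another gene. CSPG4 and NOTCH3, both pericyte genes, had mean levels of 3.30 and 1.41. The genes that define smooth muscle were not expressed by this rule. ACTA2 had levels of 1.09 and 0.765, from 37 and 26 counts, and 38.5% of its exon bases overlap another gene. DES had levels of 0.0808 and 0.162, and MYH11, which has a copy, had no count. Over its longest transcript ACTA2 would pass, at 1.66 and 1.16, and TPM1 and TAGLN would have mean levels of 73.6 and 55.6.

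Of 14 transcription factors tied to epithelial to mesenchymal transition, 8 were expressed. FOXC2 was abundant at 60.5 and 59.9, and TCF3 was at 32.9 in both libraries. TWIST1, a repressor of E-cadherin, had levels of 9.21 and 9.31. SOX9 had levels of 5.69 and 6.79, SNAI1 3.83 and 3.97, FOXC1 3.08 and 2.77 and ZEB2 2.17 and 2.18. ZEB1 was just above the threshold at 1.38 and 1.43, from 257 and 268 counts. SNAI2 was low at 0.333 and 0.526, and TWIST2, which has a copy, had no count. With transcript length ZEB1 would be at a mean of 2.53 and TCF3 at 51.1. PRRX2, at 1.51 and 0.950, was the mesenchymal gene nearest below the threshold and HAND2, at 1.24 and 1.32, the one nearest above it, and PRRX2 would then pass, at 1.61 and 1.01.

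Lineage factors of lung and other mesenchyme gave 9 expressed of 16. FOXD1 had levels of 10.1 and 9.83, GLI2 9.05 and 8.93, FOXL1 8.15 and 8.34 and TBX18 4.39 and 4.47. TCF21, a factor of lung fibroblast progenitors, was at 1.75 and 2.01. The lung mesenchyme factors FOXF1 and TBX5 had no count, and TBX4 was low at 0.0890 and 0.133. Expressed mesenchyme factors were thus accompanied by the lung epithelial factor NKX2-1 in the same libraries, and no single-cell measurement shows whether they shared a cell.

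Matrix genes were the category with the largest expressed share of the 5, 80 of 121 (66.1%), with 25 abundant and 20 at or below the floor. The expressed share stood beside 51.3% of the protein-coding genes without a copy. The median level of the matrix genes was 6.95, and they took 3.62% and 3.64% of all counts. EFEMP1, a glycoprotein of the fibulin family, had levels of 1081 and 1089. FN1, which encodes fibronectin and lies at chromosome 2:215360865-215436068, had levels of 857 and 856, from 121605 and 121504 counts. CCN2 and CCN1, matricellular proteins induced by mechanical stress, had levels of 822 and 821 and of 808 and 806. SPARC and THBS1 had mean levels of 247 and 221. Of the 20 glycoproteins and matricellular proteins, 14 were expressed, while ELN, elastin, was low at 0.134 in both libraries and TNC was low at 0.817 and 0.743. Over its longest transcript TNC would pass, at 1.13 and 1.03.

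Fibrillar collagens gave 4 expressed of 9. COL1A1, the major chain of type I collagen, was abundant at 328 and 332 and lies at chromosome 17:50184101-50201631. COL1A2, which encodes the partner chain of the same trimer, had levels of 6.87 and 7.02, from 577 and 590 counts. COL5A2 had levels of 33.6 and 33.5 and COL5A1 1.91 and 1.67. COL3A1 had no count, and its copy had 7 and 6. The 2 chains of type I collagen therefore stood at ranks 127 and 5725, and neither has an annotated copy or an exon overlap with another gene. Over the longest transcripts their mean levels would be 290 and 6.51.

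Of 18 basement membrane and other collagens, 11 were expressed. COL8A1 was the one abundant member, at 174 and 175, and COL6A1 had levels of 28.5 and 28.9, while COL6A2, another chain of the same collagen, was low at 0.848 and 0.806, and would pass over its longest transcript at 1.07 and 1.01. All 6 genes of type IV collagen, the network former of basement membranes, were expressed. COL4A2 had levels of 47.7 and 46.3 and COL4A1 15.8 and 16.8. COL4A4 had levels of 11.7 and 11.5 and COL4A3 2.94 and 3.02. Over its longest transcript COL4A4 would be at a mean of 18.0. COL4A5 had levels of 5.30 and 5.61 and COL4A6 2.80 and 3.14.

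The type IV collagen genes lie head to head in pairs that share the region between their starts. RefSeq promoter windows in GRCh38.p14 were therefore read, for one gene of each pair whose window started at the deposited 5′ end. The pairs were chosen after their values were seen. The starts of COL4A1 and COL4A2 lie 126 bases apart on chromosome 13, those of COL4A3 and COL4A4 135 bases apart on chromosome 2 and those of COL4A6 and COL4A5 379 bases apart on chromosome X. The windows below run 5′ to 3′ from 250 bases before to 50 bases after the start, on the strand of the named gene, at chr13:110307108-110307407 (minus), chr2:227164374-227164673 (plus) and chrX:108439409-108439708 (minus). The window of COL4A6 covers only part of the 379 bases between its start and that of COL4A5. Capitals mark CCAAT and GGGCGG, the letters of the CCAAT box and the GC box, or their reverse complements ATTGG and CCGCCC.
COL4A1: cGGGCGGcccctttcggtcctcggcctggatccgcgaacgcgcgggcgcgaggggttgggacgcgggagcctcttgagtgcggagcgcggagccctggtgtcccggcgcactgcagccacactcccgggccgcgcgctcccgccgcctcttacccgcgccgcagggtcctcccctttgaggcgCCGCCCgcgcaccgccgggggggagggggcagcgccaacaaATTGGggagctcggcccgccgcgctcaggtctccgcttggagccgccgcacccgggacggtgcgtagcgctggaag
COL4A3: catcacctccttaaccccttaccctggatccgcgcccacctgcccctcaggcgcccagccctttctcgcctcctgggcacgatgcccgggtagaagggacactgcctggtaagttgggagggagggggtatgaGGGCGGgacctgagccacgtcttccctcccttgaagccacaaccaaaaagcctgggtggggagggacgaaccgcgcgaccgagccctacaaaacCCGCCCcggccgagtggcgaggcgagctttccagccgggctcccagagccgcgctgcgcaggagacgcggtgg
COL4A6: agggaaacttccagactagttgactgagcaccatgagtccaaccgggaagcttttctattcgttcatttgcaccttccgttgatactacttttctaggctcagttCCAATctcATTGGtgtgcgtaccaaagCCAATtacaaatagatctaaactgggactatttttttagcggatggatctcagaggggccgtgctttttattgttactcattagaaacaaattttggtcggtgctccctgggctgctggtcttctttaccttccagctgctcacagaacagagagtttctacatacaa

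The 3 windows differed in composition. That of COL4A1 held 45 CG pairs and was 76.7% G and C, that of COL4A3 24 and 67.7%, and that of COL4A6 7 and 43.7%, beside a median of 14 CG pairs over 35116 RefSeq windows. The COL4A1 window held GGGCGG 2 times, once on each strand, and CCAAT once on the other strand. The COL4A3 window held GGGCGG 2 times and no CCAAT, and the COL4A6 window held CCAAT 3 times and no GGGCGG. On either strand, CCAAT was present in 34.6% of all windows and GGGCGG in 45.0%, and the motifs do not overlap each other. A match is a run of letters and not a measured binding site.

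Laminins and nidogens gave 8 expressed of 10. LAMB1 and LAMC1, which pair in many laminins, had levels of 86.6 and 85.0 and of 63.2 and 63.7, and LAMA5, an epithelial alpha chain, was at 52.6 in both libraries. NID1, which links laminin to type IV collagen, had levels of 35.4 and 34.3, and LAMB2 and LAMA4 had mean levels of 12.3 and 3.78. LAMA1, at 1.16 and 1.11, was the matrix gene nearest above the threshold and P4HA3, at 0.901 and 0.920, the one nearest below, which over its longest transcript would pass at 1.20 and 1.22. Of 15 proteoglycans, 12 were expressed. BGN, biglycan, had levels of 228 and 231, the syndecan SDC4 139 and 142 and the heparan sulfate proteoglycan AGRN 52.8 and 52.9. GPC1, CD44 and HSPG2 had mean levels of 41.0, 31.7 and 17.3. DCN, the fibroblast proteoglycan decorin, was near the threshold at 1.24 and 1.44, and LUM, lumican, was low at 0.158 and 0.136.

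Enzymes and chaperones of collagen processing gave 12 expressed of 14, none at the floor. SERPINH1, the collagen chaperone, had levels of 267 and 270, and LOXL2, a crosslinking oxidase, 82.9 and 80.4. PLOD1, PLOD2, BMP1 and PLOD3 had mean levels of 50.4, 48.7, 34.2 and 32.5, and LOX had levels of 10.9 and 10.5. Among matrix proteases and their inhibitors, the inhibitors TIMP1 and TIMP2 were the abundant members, at 424 in both libraries and at 165 and 167. The membrane protease MMP14 had levels of 29.8 and 30.3, ADAM17, ADAMTS1 and ADAM10 mean levels of 13.1, 11.4 and 7.76, and the gelatinase MMP2 1.80 and 2.24. MMP3, MMP7, MMP9 and MMP13 had no count in either library.

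**Figure D3:**
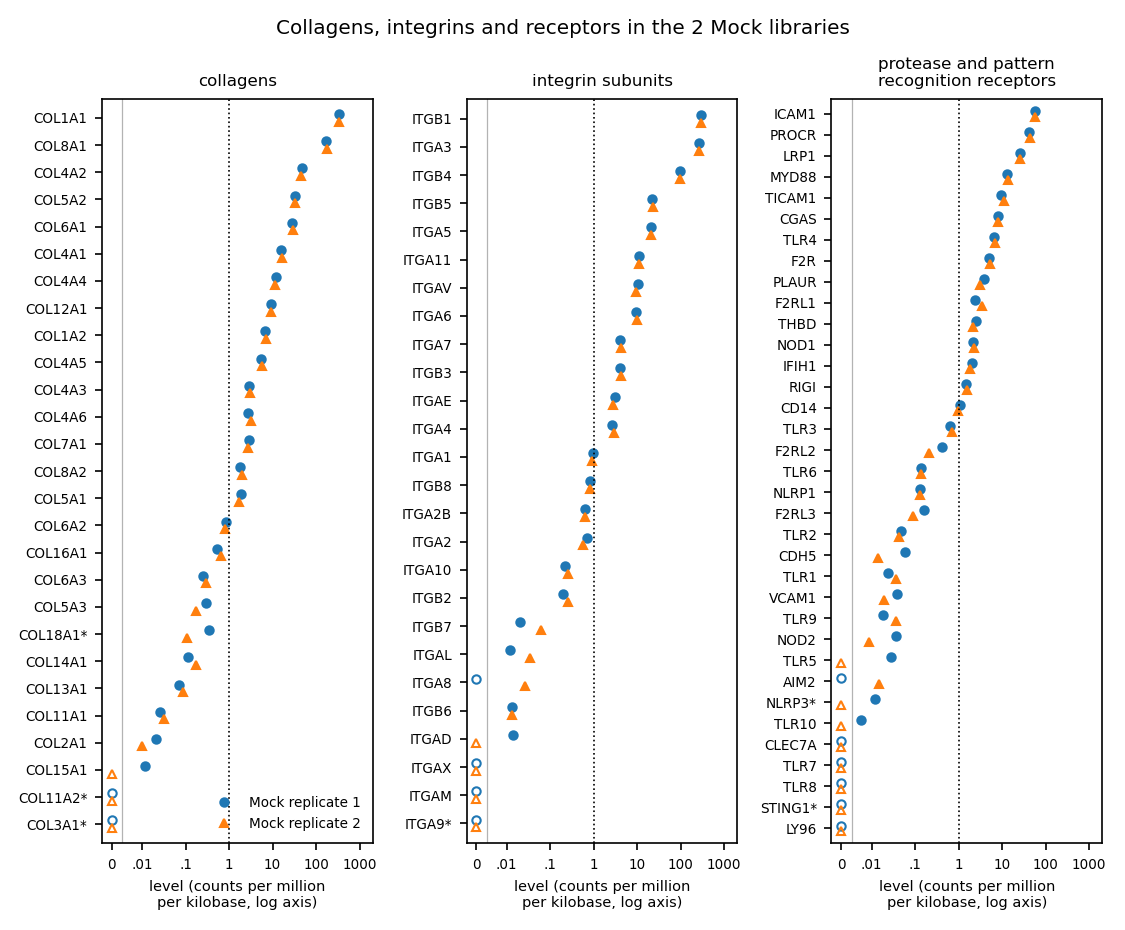
Levels of 27 collagen chains, 26 integrin subunits and 35 protease and pattern recognition receptor genes in Mock replicate 1 (blue circles) and 2 (orange triangles), in CPM per kilobase on a log axis. Open symbols left of the grey line stand for a count of 0, the dotted line for a level of 1 and an asterisk for a gene with an annotated copy; COL1A1, ITGB1, ITGA3 and COL8A1 lie above 100.

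The genes of fibrinogen and of its formation and removal were read because the series gave fibrinogen to the same line. FGG, the gamma chain of fibrinogen, was expressed at 1.75 and 2.18, from 61 and 76 counts, and would fail at a threshold of 2. FGB, the beta chain, was low at 0.494 and 0.345, and FGA, the alpha chain whose C-terminal part is the αC domain, had no count in either library. Of the 20 genes of this list, 11 were expressed. ANXA2 and S100A10, which form a plasminogen receptor, had levels of 317 in both libraries and of 279.5 and 274. Over the longest transcripts their mean levels would be 1320 and 154.5, and that of FGB 0.780, still low. Without length division FGB would pass, at 1.81 and 1.27 CPM. TGM2, a transglutaminase, had levels of 136 and 135. The activators PLAT and PLAU had mean levels of 37.4 and 8.39, tissue factor, F3, had 36.7 and 36.6, and PLG and F13A1 had no count.

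Of 151 receptor genes, 69 (45.7%) were expressed, 6 of them abundant, 47 were low and 35 were at or below the floor, with a median level of 0.879. The expressed share was near the 51.3% of the protein-coding genes. Integrins pair an alpha with a beta subunit to bind matrix. ITGB1, the common beta subunit of collagen, laminin and fibronectin receptors, had levels of 297 and 298, and ITGA3, its partner in a laminin receptor, 262 and 261. These lie at chromosome 10:32900318-32958230 and chromosome 17:50056110-50090481. After ITGB1 and ITGB4, ITGB5 and ITGB3 were the only other beta subunits of 8 expressed, at 21.4 and 22.8 and at 4.02 and 4.12. ITGB8 was low at a mean of 0.821, though over its longest transcript it would pass at 1.24 and 1.21, and ITGB6, the airway epithelial partner of ITGAV, had 1 count in each library.

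Of 18 alpha subunits, 8 were expressed. ITGA5, the fibronectin receptor subunit, had levels of 20.23 and 20.98. ITGA11, a collagen receptor subunit of fibroblasts, had levels of 10.8 and 10.9, ITGAV, the vitronectin receptor subunit, 10.4 and 9.40, and ITGA6, the partner of ITGB4, 9.15 and 9.87. ITGA7 had a mean level of 4.16. ITGA2, the collagen receptor subunit, was low at 0.682 and 0.551. The leukocyte subunits ITGAM and ITGAX, which bind fibrinogen on myeloid cells with ITGB2, had no count, and ITGB2 was low at 0.193 and 0.250. Both subunits of the ITGAV and ITGB3 pair, a fibrinogen receptor, were therefore expressed, while the platelet subunit ITGA2B was low at 0.642 in both libraries. ITGA2B would pass at a threshold of 0.5, without length division at 2.235 and 2.234 CPM, or after rescaling to TPM.

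Among other receptors for fibrinogen and proteases, 7 of 11 were expressed. ICAM1, a fibrinogen-binding adhesion molecule, was abundant at 55.9 and 57.9, and 27.5% of its exon bases overlap another gene. PROCR, the protein C receptor, had levels of 41.5 and 44.0, and LRP1 26.0 and 25.7. F2R, the thrombin receptor PAR1, had levels of 5.13 and 5.22, and F2RL1, the trypsin-like protease receptor PAR2, 2.41 and 3.50 from 114 and 166 counts. PLAUR, the urokinase receptor, had levels of 3.88 and 3.12, and THBD, thrombomodulin, a mean of 2.38. F2RL2 and F2RL3 were low, and VCAM1 was at the floor.

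Receptor tyrosine kinases gave 14 expressed of 24. AXL, a receptor for GAS6, had levels of 263 and 264 and rank 171. EPHA2, ERBB2, EPHB4, FGFR1 and EPHB2 had mean levels of 32.8, 27.7, 21.5, 14.6 and 10.3. MET, the receptor of hepatocyte growth factor, had levels of 8.54 and 8.43. EGFR, the receptor of epidermal growth factor, had levels of 4.75 and 4.89 from 4034 and 4150 counts, but its merged exons span 51280 bases, and over its longest transcript the mean level would be 25.2. MERTK, at 1.06 in both libraries, was the receptor gene nearest above the threshold and INSR, at 0.958 and 1.09, the one nearest below. Over the longest transcripts INSR would pass, at 1.01 and 1.15, and EPHA2 would be at a mean of 51.1. ERBB4, KIT and FGFR2 were low, at mean levels of 0.0168, 0.0645 and 0.145.

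Of 13 receptors of the transforming growth factor beta family, 8 were expressed. TGFBR2, which binds the ligand, had levels of 13.5 and 13.1, and BMPR2, ACVR1B, ACVR1 and ACVR2A had mean levels of 5.26, 5.12, 4.37 and 2.18. TGFBR1, the signalling partner of TGFBR2, was low at 0.892 and 0.884 over merged exons of 23988 bases. Over the longest transcripts TGFBR1 would pass, at 3.28 and 3.25, TGFBR2 would be at a mean of 37.2 and ACVR1B at 8.86.

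Pattern recognition genes gave 7 expressed of 24 and 10 at or below the floor. TLR4, the receptor for lipopolysaccharide, had levels of 6.65 and 6.88 from 1409 and 1458 counts and was the one expressed Toll-like receptor. LY96, which encodes the co-receptor MD-2 that TLR4 needs to bind lipopolysaccharide, had no count in either library, an upper 95% limit of 0.0364 on its level over 3057 exon bases, or of 0.184 over its longest transcript of 607 bases. CD14, which hands lipopolysaccharide to that complex, was at the threshold, at 1.07 and 0.955. The adaptors MYD88 and TICAM1 had levels of 13.2 and 13.8 and of 9.34 and 11.2, and the sensors CGAS, NOD1 and IFIH1 mean levels of 8.03, 2.22 and 1.92. TLR3 was low at a mean of 0.688, and TLR2 was low at 0.0484 and 0.0436. With transcript length NOD1 would be at a mean of 3.67 and TLR2 at 0.137. STING1, which has a copy, was listed at 0.

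Cytokine receptors gave 13 expressed of 24. TNFRSF1A, the main receptor for tumour necrosis factor, was abundant at 92.9 and 93.7, OSMR had levels of 22.2 and 22.0, and IL6ST, the shared signalling chain of OSMR, LIFR and IL6R, had 10.4 and 10.7. IL13RA1 had levels of 14.7 in both libraries and IL4R 2.72 and 2.50, and these chains form the receptor through which epithelial cells bind IL4 and IL13. IL4R would be at a mean of 4.38 over its longest transcript. IFNGR1 and IFNAR1 had mean levels of 10.5 and 8.41. IL1R1 was low at 0.891 and 0.899, though over its longest transcript it would pass at 1.12 and 1.13, and IL1RL1, the receptor for IL33, was low at 0.0575 and 0.0460. None of 11 chemokine receptors was expressed. ACKR3 and CCR7 were low, at mean levels of 0.553 and 0.438, and CXCR1 and CXCR2 had no count.

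Among receptors for hormones, mediators and airway drugs, 8 of 18 were expressed. AHR, the aryl hydrocarbon receptor, had levels of 15.4 and 15.1, NR3C1, the glucocorticoid receptor, 7.40 and 7.81, and RARA 6.21 and 5.80. HRH1, the histamine receptor, EDNRA and VDR had mean levels of 4.76, 4.65 and 4.55. PTGER4, a prostaglandin E receptor, had levels of 2.35 and 2.13. Length changed the order here, since over the longest transcripts the mean levels would be 23.9 for RARA, 13.7 for AHR, 6.18 for PTGER4 and 0.196 for CHRM3. CHRM3, the muscarinic receptor, was low at 0.0378 and 0.0450, and CYSLTR1 had no count.

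Of 104 immune genes, 32 (30.8%) were expressed, 4 of them abundant, 25 were low and 47 were at or below the floor, with a median level of 0.109. The expressed share and the median stood beside 51.3% and 1.28 over the protein-coding genes without a copy. A share of this category is uncertain, since 28 of its genes have an annotated copy, 18 of them at or below the floor. Without copied genes, 28 of 76 were expressed. Of the 18 defining genes, 10 were expressed and 7 were at or below the floor.

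**Figure D4:**
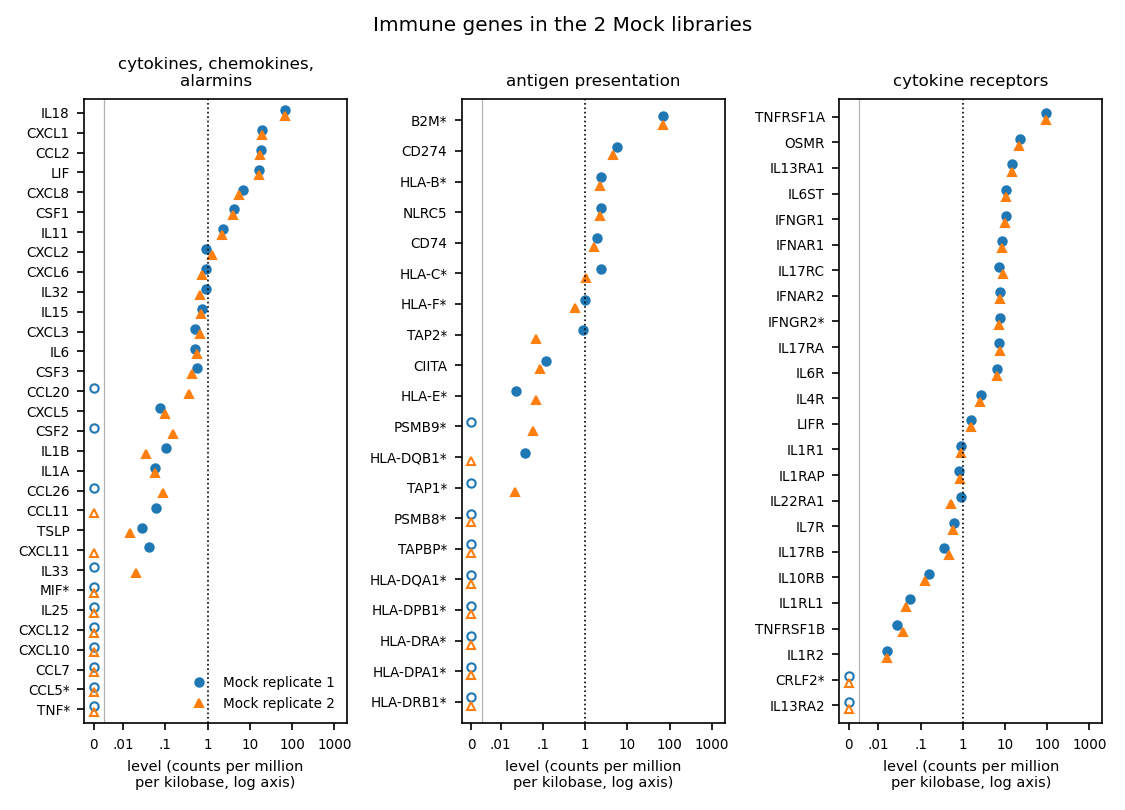
Levels of 31 cytokine, chemokine and alarmin genes, 20 antigen presentation genes and 24 cytokine receptor genes in Mock replicate 1 (blue circles) and 2 (orange triangles), in CPM per kilobase on a log axis. Open symbols left of the grey line stand for a count of 0, the dotted line for a level of 1 and an asterisk for a gene with an annotated copy; IL18 lies near 67 and the 3 alarmins lie at the floor.

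Cytokines and chemokines gave 7 expressed of 28. IL18, a stored epithelial cytokine, was abundant at 67.3 and 66.8. The neutrophil chemokine CXCL1 had levels of 19.0 and 19.8, the monocyte chemokine CCL2 18.8 and 17.4, and LIF 16.6 and 16.1. CXCL8, a neutrophil chemokine, had levels of 6.75 and 5.63 from 230 and 192 counts, and CSF1 and IL11 mean levels of 4.09 and 2.25. IL6 was low at 0.501 and 0.569, from 22 and 25 counts, and over its longest transcript it would be at a mean of 0.930, still low. That call rests on the unit and threshold. IL6 would pass at a threshold of 0.5, without length division at 1.33 and 1.51 CPM, or after rescaling to TPM. CXCL2, at 0.921 and 1.30, was the immune gene nearest below the threshold, and IL1B was at the floor. TSLP had levels of 0.0286 and 0.0143, IL33 had 0 and 1 counts and IL25 had none, so the 3 epithelial alarmins were all at or below the floor. TNF and MIF, both copied genes, were listed at 0.

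Antigen presentation genes depended on how copies were counted, since 17 of 21 have one. B2M, the common light chain of class I molecules and a copied gene, was abundant at 68.7 and 68.6. HLA-B had 60 and 57 counts on the primary assembly and 6738 and 6880 on its copies, and HLA-C 61 and 27 against 6790 and 7178. With copies added, the mean levels were 270 for HLA-B and 275 for HLA-C, compared with 2.30 and 1.72 without. The genes for class II chains HLA-DRA, HLA-DRB1, HLA-DPA1 and HLA-DPB1 were listed at 0, and all have copies. CD74, the class II invariant chain, was expressed at 1.94 and 1.57, CIITA, the class II transactivator, was low at 0.117 and 0.0850, and CD274, which encodes PD-L1, had levels of 5.72 and 4.59.

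Interferon-stimulated genes gave 10 expressed of 18. IFITM3 had levels of 471 and 489.5 and IFITM1 63.9 and 59.0. ISG15, IFI6 and OAS3 had mean levels of 23.3, 22.2 and 15.2. MX1 was at 2.42 and 2.36 (a mean of 4.02 over its longest transcript), and IFIT1, at 1.04 and 1.16, was the immune gene nearest above the threshold. IRF7, a copied gene, had 51 and 5 counts on the primary assembly and 81 and 116 on its copy. Of 12 complement genes and regulators, 6 were expressed. The membrane regulators CD59, CD46 and CD55 had mean levels of 29.6, 23.4 and 7.25, and over its longest transcript CD55 would be at 18.3. C3, the central component, had levels of 12.6 in both libraries, and C1S and SERPING1 mean levels of 5.41 and 1.75.

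The cell type on the labels, epithelial cell, was read against these markers and against those of other cells. Of 22 leukocyte markers, 18 were at or below the floor, with CD3E and, as a copied gene, PTPRC at no count and LYZ at 1 and 0 counts. The exceptions above the threshold were CD68, a lysosomal protein of macrophages, at 17.3 and 14.3, and CPA3, a mast cell carboxypeptidase, at 2.23 and 1.89. Erythroid and platelet genes were all at or below the floor (7 of 7), HBB and PPBP with no count, and endothelial genes gave 0 expressed of 10, with PECAM1 at 0.0355 and 0.0177. Of 17 neural and mesothelial genes, TUBB3 at 18.2 and 17.7 and MSLN at 12.6 and 12.4 were expressed, while SOX10, ITLN1 and LRRN4 had no count. Keratins of simple epithelium, desmosomal genes, ITGB4, EPCAM and NKX2-1 were expressed as the label would have it. CDH1, GRHL2, ESRP1 and the basal cell factor TP63 were low or at the floor, the call of CDH1 resting on the unit and threshold. The call of EPCAM rests on the threshold too, since it would fail at a threshold of 2. Without length division CDH1 would lie above EPCAM, at 4.53 and 3.62 against 1.93 and 2.54 CPM. Among mesenchymal and matrix genes, VIM, FN1 and COL1A1 were abundant, while FAP, SNAI2 and LUM were low. COL3A1, which has a copy, had no count. Of the defining genes, 6 of 22 epithelial and 6 of 13 mesenchymal ones were expressed, beside 51.3% of the protein-coding genes without a copy. The epithelial ones include markers of ciliated, secretory, ionocyte and alveolar cells. These are FOXJ1, SCGB1A1, MUC5AC, MUC5B, FOXI1, CFTR, SFTPC and AGER, all at or below the floor. Of the mesenchymal ones, 2 were at or below the floor, MYH11 and FOXF1. The fractions therefore depend on which cell types the lists cover and do not rank the identities. All 14 reference genes were expressed, from TBP at 19.5 and 20.6 to ACTB.

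**Figure D5:**
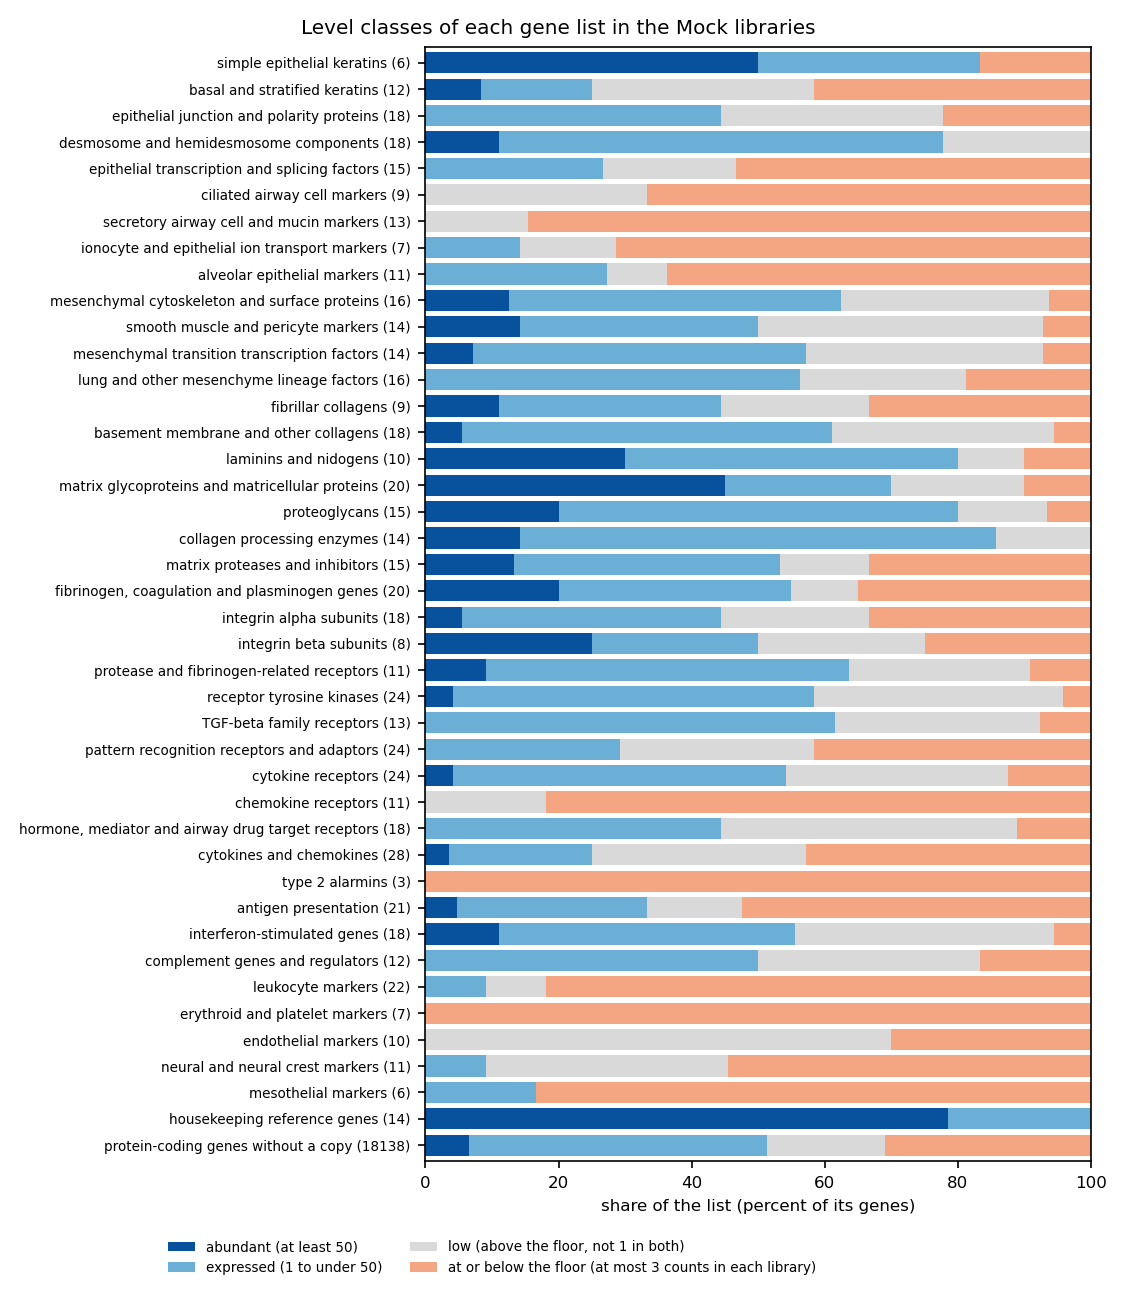
Share of each list's genes (percent, number of genes in brackets) that were abundant, expressed, low or at or below the floor in the Mock libraries, with the 18138 protein-coding genes without a copy as the last bar. The desmosome, laminin, proteoglycan and collagen processing lists are expressed for 77.8% to 85.7% of their genes, and the ciliated, secretory, chemokine receptor and alarmin lists for none.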

How the data were processed

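Gene expression was measured by RNA sequencing of mRNA-enriched libraries. Per the file headers, the deposited values are whole counts of read pairs, summed by gene over exons with featureCounts, without strand and without multi-mapping reads. Its version is 1.6.0 in the headers and 1.6.2 in the submitters' processing notes. The notes also name Trimmomatic 0.39, HISAT2 2.2.1, SAMtools 1.9 and the build GRCh38.p14, with no role for each tool. Reads of a gene and its antisense or overlapping neighbour cannot be told apart, and merged exon lengths can exceed any transcript, which lowers a level. Exon overlaps are named above for some genes only.

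Levels were computed from the deposited counts in Python 3.11.15 as CPM divided by merged exon length in kilobases, then averaged over the 2 Mock libraries. Intervals are exact 95% Poisson limits on the pooled counts and cover counting error only. There was 1 group, so nothing was tested and no p-value is given. Genes named are the 20 of highest rank outside the mitochondrial chromosome and, per list, the defining genes, the 6 of highest level and the members next to the threshold, with further members chosen after their values were seen. The members and lists were chosen with earlier results of these data known. Alternatives used edgeR 4.0.16 (TMM), DESeq2 1.42.0 (size factors), other thresholds, lengths and treatments of copies, and each library alone. The calling script was tested on simulated counts. Promoter sequences are RefSeq's; 402 of the 585 list genes had one. Some genes that the naming rule takes are not reported here.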

Additional observations from a re-analysis of the deposited data

How the results depend on the processing

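Each count of expressed genes stayed within 1.5 times its value under every alternative run: TMM, DESeq2 or non-mitochondrial library sizes, rescaling to TPM, thresholds of 0.5 and 2, no length division, copies added or left out, a minimum of 10 counts, each Mock library alone, and, chosen after seeing the data, the length of the longest GENCODE 29 transcript. Over all genes the count ran from 8879 (threshold of 2) to 12230 (rescaled to TPM), from 29 to 46 for the epithelial lists, 26 to 43 for the mesenchymal, 73 to 92 for the matrix, 60 to 95 for the receptor and 27 to 45 for the immune lists. Leaving out 1 Mock library gave 10550 or 10526 genes. The order of genes depended on length: of the 100 genes of highest rank, 58 stayed among the first 100 with no length division and 74 with transcript lengths, and 99 or 100 under the other alternatives. Of 289 named genes, rescaling to TPM moved the level of 260 by more than 1.5-fold, all upward, no length division moved 241, and leaving out Mock replicate 1 or 2 moved 26 or 21. With transcript lengths, 28 of 287 named genes moved up and 4 down by more than 1.5-fold, and 19 list genes changed sides of the threshold, 18 of them into the expressed class. No paired analysis was possible because the results come from no test. Depth limits low genes: a gene of 1 kilobase needs a level above 0.181 to pass 3 counts.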

Other observations

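Gene families were swept after the data were seen, and their members are given as values. Their counts stand beside the 51.3% of protein-coding genes without a copy that were expressed. Of 55 keratin genes, 8 were expressed, and of 24 claudins 4, with CLDN11, a claudin of testis and myelin, above CLDN1 at 51.1 and 53.3. Copied genes, whose counts are uncertain, make up 10 of the keratins and 2 of the claudins. Of 23 genes named as cadherins, CDH2, CDH24, CDH6, CDH4 and CDH3 were expressed, and CDH4 has a copy. Among 16 S100A genes, S100A10, S100A6, S100A11 and S100A16 were abundant, at mean levels of 276.7, 127.9, 115.8 and 87.4, and 48.3% of the exon bases of S100A6 overlap another gene. Of 12 laminin chains, 8 were expressed.

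Families of secreted ligands were swept in the same way, beside the 51.3% of protein-coding genes without a copy that were expressed. Of 38 interleukin genes, IL18 and IL11 were expressed, and of 43 chemokine ligands CXCL1, CCL2, CXCL8 and CXCL16. A copy is annotated for 10 of the chemokine ligands, so their counts are uncertain. Of 19 WNT ligands, WNT7B, a ligand of airway epithelium, was at 7.48 and 8.08 and WNT5B at 4.88 and 4.49. Of 22 FGF ligands, FGF2 was at 5.41 and 5.82 and FGF5 at 1.19 and 1.44. No mucin of 18 was expressed, and 8 of these have a copy.

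Families of transcription factors and of other proteins followed, beside the same 51.3%. Of 39 HOX genes, HOXB4, HOXB2 and HOXB7 were expressed, at mean levels of 3.68, 1.96 and 1.31, and 29 were at or below the floor. Of 19 SOX genes, SOX12, SOX4, SOX9 and SOX13 were expressed, at mean levels of 12.6, 11.9, 6.24 and 2.50. Of 34 serpins 11 were expressed, SERPINH1 among them, and of 14 ephrin receptors EPHA2, EPHB4 and EPHB2. A copy is annotated for 1 SOX gene, 5 serpins and 2 ephrin receptors.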
